A study of Mus musculus with 2 samples.

Results

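Foxc1, Foxc2, Foxd1, Foxd2, Foxf1, Foxf2, Foxp1, Foxp2 and Foxp4 are forkhead transcription factor genes, described here in the mesenchyme of the mouse genital tubercle, the bud from which the external genitalia develop. They are 9 genes, taken by symbol, of 45 forkhead symbols and of 31053 genes in the count tables. The 9 were listed with earlier results of these data known. Their counts beside shares over all genes are therefore a description and no test. Wild-type C57BL/6 embryos were collected at embryonic day 14.5 (Theiler stage 22), kept 2 hours in cold medium during genotyping for sex, and then pooled. The male library and the female library were each made from the tubercles of 3 embryos out of 2 litters, dissociated for 30 minutes with collagenase and loaded on a droplet platform that counts unique molecular identifiers (UMIs) at the 3' ends of transcripts. With 1 library per sex there is no replicate, so no test was made and no p-value is given. Levels are given as CPM, the counts scaled to one fixed total over the summed cells of a class or cluster, with exact 95% Poisson intervals that cover counting error only. They are not divided by transcript length, so levels are not compared between genes.

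Forkhead factors bind DNA through a winged-helix domain, and one helix of that domain lies in the major groove and reads the sequence. Foxf1 and Foxf2 are known from the gut and lung, where mesenchyme next to a Hedgehog-secreting epithelium expresses them as Hedgehog targets. Ptch1, the Hedgehog receptor, and Gli1, a transcription factor of the pathway, are transcribed in response to the signal in many tissues, and Shh from the urethral epithelium drives tubercle outgrowth. Foxc1 and Foxc2 act in mesenchyme and in blood and lymphatic vessels, Foxd1 marks the stroma of the kidney, and Foxp1, Foxp2 and Foxp4 are repressors that work as dimers.

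A coding stretch over the DNA-reading helix and the codons that follow it is given for 7 of the genes, to show how far these stretches differ. Each stretch is 45 bases (15 codons) of a coding exon, from the GENCODE M21 transcripts of the GRCm38 build, and capitals mark bases that differ from Foxf1.
Foxf1, chr8:121084678-121084722, plus strand: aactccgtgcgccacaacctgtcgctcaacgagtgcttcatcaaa
Foxf2, chr13:31626515-31626559, plus strand: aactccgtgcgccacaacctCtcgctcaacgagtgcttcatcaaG
Foxc1, chr13:31807577-31807621, plus strand: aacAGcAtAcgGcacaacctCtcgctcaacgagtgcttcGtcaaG
Foxc2, chr8:121116963-121117007, plus strand: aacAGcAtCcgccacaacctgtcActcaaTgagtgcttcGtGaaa
Foxd1, chr13:98355145-98355189, plus strand: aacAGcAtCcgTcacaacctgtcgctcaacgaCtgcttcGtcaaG
Foxd2, chr4:114908255-114908299, minus strand: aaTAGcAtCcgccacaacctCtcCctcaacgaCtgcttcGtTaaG
Foxp4, chr17:47871307-47871351, minus strand: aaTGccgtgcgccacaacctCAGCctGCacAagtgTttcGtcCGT
Within the F, C and D groups no codon encodes another residue: Foxf2 differs from Foxf1 at 2 bases, Foxc2 from Foxc1 at 7, and Foxd2 from Foxd1 at 5. By bases the C and D genes do not separate, since Foxc1 differs from Foxd1 at 4, but 1 codon encodes another residue between them. Over the whole stretch, and not the helix alone, 2 codons encode another residue than in Foxf1 in the C genes, 3 in the D genes and 5 in Foxp4. The genes were counted by their own 3' ends. Stretches of 31 bases were taken from the last 500 bases of each transcript. None in Foxc1, Foxc2, Foxd1, Foxd2, Foxf1 or Foxp4 occurs in a transcript of another gene. The share that does is 2.6% in Foxf2, 5.7% in Foxp1 and 3.5% in Foxp2, so that reads of these 3 genes are in small part uncertain. Foxp2 is among the genes that share stretches with Foxp1, and Foxp1 is among those that share stretches with Foxp2.

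The libraries held 130105692 UMIs (male) and 144515562 UMIs (female). Barcodes with 2000 or more UMIs, 500 or more genes and at most 10% mitochondrial UMIs numbered 17254 and 18711, and 14872 and 15910 were left after the highest doublet scores were removed, with medians of 4892.5 and 4887 UMIs. The libraries shared 65 barcodes. Mesenchyme-like cells, named by collagen, Pdgfra, Prrx1 and Twist markers, were 14184 male and 15382 female cells, 95.4% and 96.7% of all. Endothelium-like, epithelium-like and erythroid-like cells reached 50 in each library, and a smooth muscle-like class held 172 cells of the male library and none of the female library, so that it cannot be told apart from that library. RNA free in the droplets, measured in barcodes of up to 100 UMIs, carried every member.

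Foxd1, Foxd2, Foxf1, Foxf2 and Foxp2 were highest in mesenchyme-like cells among the 4 classes with 50 or more cells in each library. That is 5 of the 9 genes, and 34.0% of all 13085 genes with 100 or more mesenchyme UMIs met the same rule. Foxf2 was at 134.5 CPM in male and 152.5 CPM in female mesenchyme-like cells, against 3.63 and 6.85 CPM in endothelium-like and 7.88 and 9.40 CPM in epithelium-like cells. Foxf1 was at 47.5 and 48.2 CPM in mesenchyme-like cells, against 0.526 and 1.18 CPM in epithelium-like cells, where it had 1 UMI in each library. Both F genes were thus higher in mesenchyme-like than in epithelium-like cells, with intervals that do not overlap. With at most 5% mitochondrial UMIs, which kept 1213 male and 1101 female cells, Foxf1 was at 24.1 and 27.9 CPM in mesenchyme-like cells. Foxd1 was at 21.2 and 24.1 CPM and Foxd2 at 20.1 and 22.9 CPM in mesenchyme-like cells. Foxd2 had no UMI in epithelium-like cells of either library, with exact upper bounds of 1.94 and 4.34 CPM. Erythroid-like cells had 17 and 19.9 CPM of Foxf1 and 44.4 and 56.9 CPM of Foxf2, and their summed mesenchyme markers stood at 39.2% and 43.0% of the mesenchyme level. Free RNA held 34.1 and 37.5 CPM of Foxf1 and 119 and 130 CPM of Foxf2, and its part in the erythroid-like values was not tested.

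The C genes were low over the mesenchyme-like class as a whole. Foxc1 was at 29.0 CPM (interval 22.7 to 36.5) in male and 19.8 CPM (12.9 to 29.0) in female endothelium-like cells, against 2.80 and 1.88 CPM in mesenchyme-like cells. At most 5% mitochondrial UMIs gave 2.47 and 0.46 CPM of Foxc1 and 0.619 and 0.767 CPM of Foxc2 in mesenchyme-like cells. The log2 ratio of endothelium-like over mesenchyme-like cells was 3.37 (2.97 to 3.76) in the male and 3.40 (2.74 to 4.00) in the female library. Foxc2 was at 6.85 and 2.29 CPM in endothelium-like cells, from 17 and 3 UMIs, against 1.27 and 1.47 CPM in mesenchyme-like cells. The female interval of Foxc2 in endothelium-like cells, 0.471 to 6.68 CPM, contains the mesenchyme-like level, so that a difference was not detectable at this depth. In the male smooth muscle-like cells Foxc1 was at 22.1 CPM and Foxc2 at 9.56 CPM.

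Of the P genes, Foxp1 was spread over the classes. Its level was 100.8 CPM (male) and 141.8 CPM (female) in mesenchyme-like, 148 and 144 CPM in endothelium-like and 130 and 146 CPM in epithelium-like cells. The 51 female cells of the glia and neural crest-like class had 211 CPM (175 to 253) and the 32 male cells 132 CPM (93.8 to 180). Foxp4 was at 35.3 and 35.6 CPM in mesenchyme-like and 37.3 and 37.6 CPM in epithelium-like cells, within counting error of each other, and at 4.84 and 3.05 CPM in endothelium-like cells. Foxp2 was at 52.2 and 61.2 CPM in mesenchyme-like cells, against 25.2 and 25.9 CPM in epithelium-like cells. Foxp2 was higher in male smooth muscle-like cells, at 95.6 CPM (81.4 to 112), than in male mesenchyme-like cells.

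**Figure D1:**
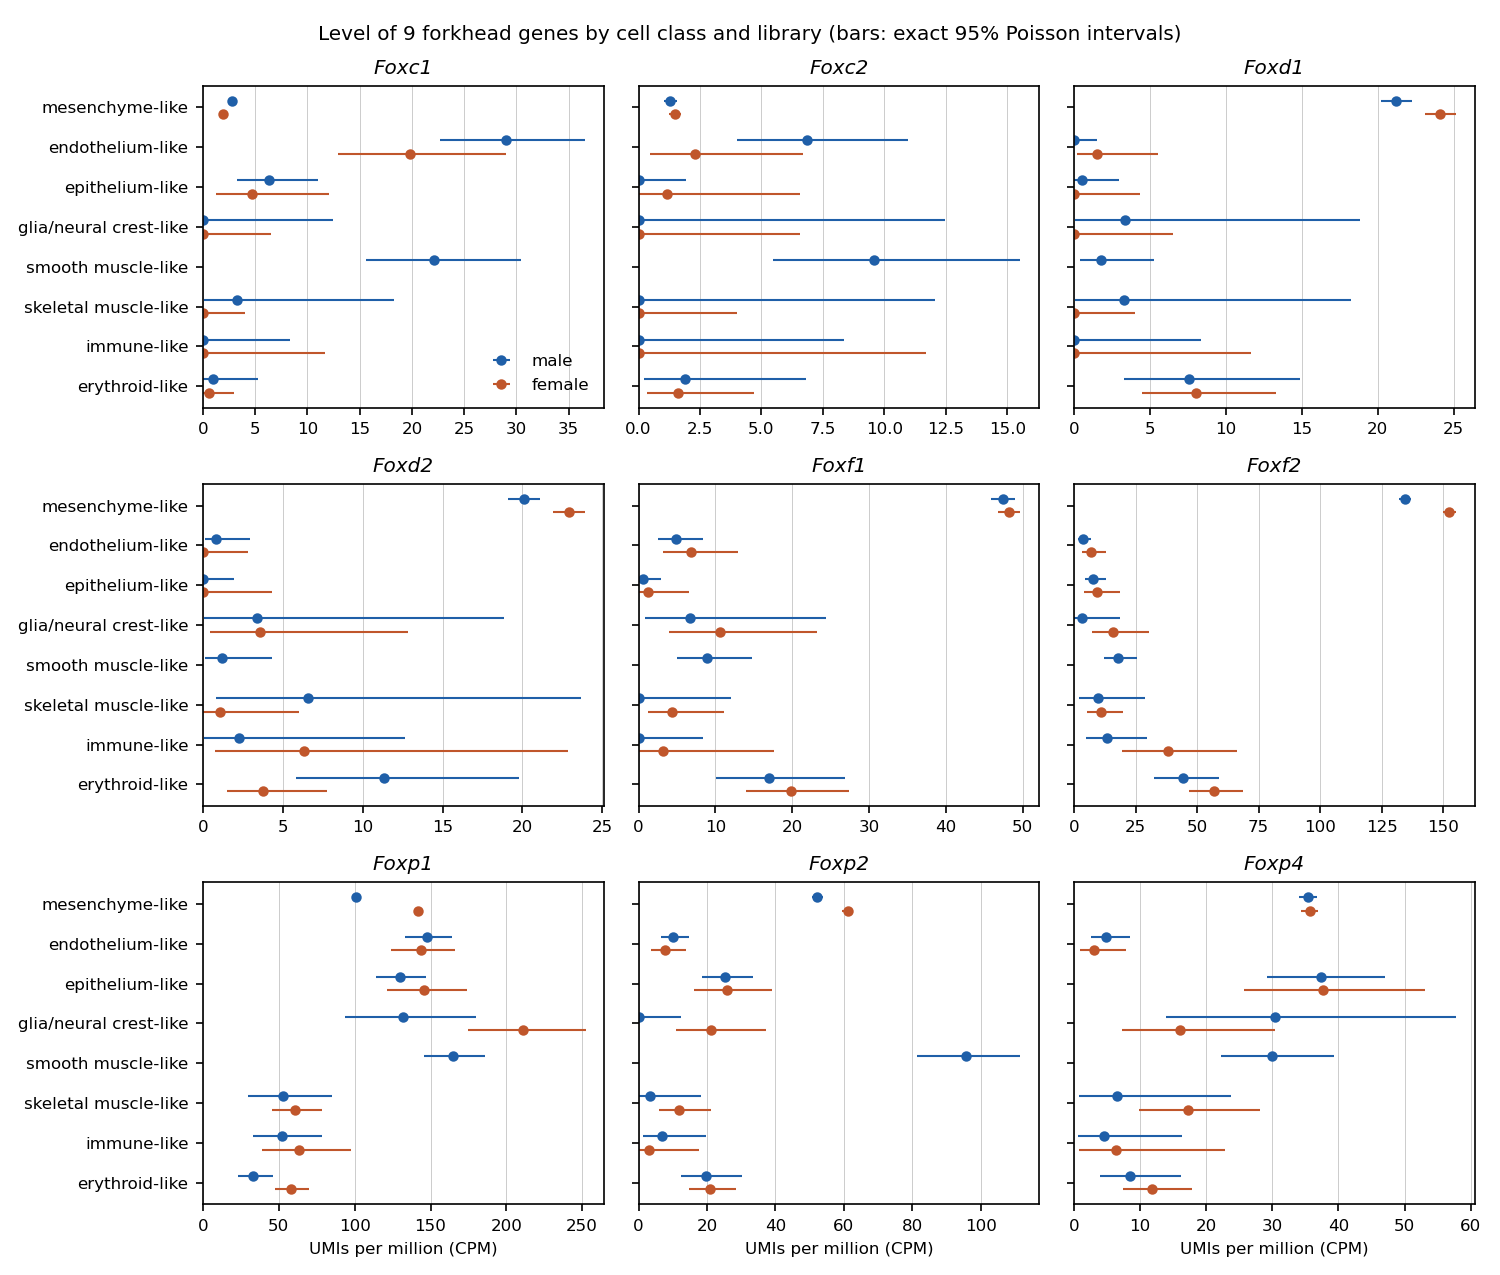
Level in CPM (x axis, 1 panel per gene, each with its own scale from 0) of the 9 forkhead genes in 8 cell classes (y axis), for the male library (blue, upper point) and the female library (orange, lower point), with exact 95% Poisson intervals as bars. Foxd1, Foxd2, Foxf1 and Foxf2 stand highest in mesenchyme-like cells, Foxc1 in endothelium-like and male smooth muscle-like cells, and Foxp1 is at 100.8 CPM or more in 5 classes.

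The mesenchyme-like cells were split into 19 clusters of 319 to 1373 cells per library. The clusters were drawn without any forkhead gene and without the genes of the Hedgehog lists, so that the levels below did not shape them. Each cluster is called by the 2 genes that lead it, and 14 of them match a set of domain genes taken from earlier results on these cells, such as Sall3 and Lbx2, Sim1 and Tbx15, or Aldh1a2 and Tcf21. The labels do not give the place of these domains in the tubercle. Of the 9 genes, 8 had a highest level at least 4-fold over their lowest in both libraries (with 1 CPM added). The share over all genes tested was 19.0%, but the 9 were chosen with earlier results of these data known. Foxp4 was the exception at 3.78-fold in male and 4.57-fold in female cells. Male and female levels of a gene over the 19 clusters correlated at Pearson r of 0.87 to 0.99 for the 9 genes. The points of these and all later correlations across clusters share 2 libraries and 1 clustering and are given as a description.

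Foxf1 had the widest range of the 9. The cluster led by Tcf21, a mesenchymal transcription factor gene, and by the smooth muscle actin gene Acta2 had 512 CPM in male and 514 CPM in female cells. The next cluster, led by Sall3 and Lbx2, had 132 and 136 CPM, and the cluster led by Gatm and Sim1 had 0.735 and 1.53 CPM, the lowest. This made the highest level 296-fold (male) and 203-fold (female) the lowest, with 1 CPM added. The Tcf21 and Acta2 cluster held 1.99% of male and 1.45% of female mesenchyme UMIs but 21.5% and 15.5% of Foxf1 UMIs. Between these extremes lay the clusters led by Npnt and Adarb2 (79.6 and 90.1 CPM), Lmcd1 and Col8a1 (78.3 and 84.0 CPM) and Nefm and Nefl (83.6 and 78.3 CPM), whose ranges over the libraries overlap. The 4 lowest clusters, all under 7 CPM, were led by Rprm and a (the agouti gene), Vax2os and Tbx15, Gatm and Col14a1, and Gatm and Sim1.

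Smooth muscle markers were not equal in the Tcf21 and Acta2 cluster of the libraries. The 6 smooth muscle markers summed to 723 CPM there in male and 70.9 CPM in female cells, against 13.6 to 114 CPM and 10.6 to 99.9 CPM over the other 18 clusters. Foxf1 was as high in this cluster in the female library as in the male library. The male smooth muscle-like class had 8.96 CPM of Foxf1 (5.02 to 14.8).

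Foxf2 had another order of clusters than Foxf1. Its highest levels were in the cluster led by Anxa1 and Pcdh17, which also holds the tendon gene Scx among its leading genes, at 248 CPM in male and 294 CPM in female cells. The Tcf21 and Acta2 cluster followed with 265 and 268 CPM and the Rprm and a cluster with 226 and 237 CPM, and the first 2 overlap over the libraries. In the Rprm and a cluster Foxf1 was at 3.81 and 6.53 CPM. Likewise the Gatm and Sim1 cluster, lowest for Foxf1, had 137 and 156 CPM of Foxf2. The lowest Foxf2 levels were 12.8 and 17.3 CPM in the cluster led by Vgll2 and Dlx2 and 18.5 and 24.2 CPM in that led by Mab21l2 and Krt18. Over the 19 clusters Foxf1 and Foxf2 correlated at r = 0.25 in male and 0.22 in female cells.

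The gene whose levels were most like those of Foxf2, of 10824 genes searched, was 1700018A04Rik, a long intergenic RNA gene on the other strand, with r = 0.96 in male and 0.95 in female cells. It lies on chr13:31565492-31625792 and its start is 24 bases before the Foxf2 start at base 31625816 of the GRCm38 build. The region around both starts is shown because it holds the start of each gene, and capitals run from the start of 1700018A04Rik to that of Foxf2, both as GENCODE M21 gives them. The sequence is from RefSeq on the GRCm38.p6 build.
Foxf2 start region, chr13:31625566-31625865, plus strand: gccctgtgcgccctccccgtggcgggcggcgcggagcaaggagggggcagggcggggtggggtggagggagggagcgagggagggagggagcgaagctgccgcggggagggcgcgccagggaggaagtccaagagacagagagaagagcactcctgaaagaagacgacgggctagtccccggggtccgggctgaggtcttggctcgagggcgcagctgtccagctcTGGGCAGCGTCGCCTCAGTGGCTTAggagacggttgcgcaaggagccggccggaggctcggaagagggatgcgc
Of these 300 bases 71.3% are G or C, against a median of 52.7% over all 32851 start regions in the table. Levels of 1700018A04Rik were 54.0 CPM in male and 49.5 CPM in female cells of the Anxa1 and Pcdh17 cluster, the highest in both. It was lowest in the Vgll2 and Dlx2 cluster of the male library, at 2.19 CPM, and in the Mab21l2 and Krt18 cluster of the female library, at 1.28 CPM. The next most like gene was Foxq1, another forkhead gene, which lies 64.8 kb from Foxf2 on the same strand, with r = 0.91 in both libraries. Foxq1 was at 173 and 119 CPM in the Lmcd1 and Col8a1 cluster, 146 and 128 CPM in the Anxa1 and Pcdh17 cluster, and 3.29 and 2.96 CPM in the Vgll2 and Dlx2 cluster. Foxc1, 175.2 kb from Foxf2 on the other side, correlated with it at r = 0.33 and 0.20.

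Motifs were searched on both strands of the 8 start regions that matched 6 of the 9 genes. The GLI motif GACCACCCA is in 0.253% of all 32851 start regions and the forkhead motif TGTTTAC in 3.65%. Neither is in a start region of Foxc1, Foxd1, Foxd2, Foxf2, Foxp1 or Foxp4. At shares this low, no match in 8 regions is the likely outcome, so nothing is concluded from the absence. No start region was available for Foxc2, Foxf1 or Foxp2.

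Both C genes had their highest level in the Tcf21 and Acta2 cluster. Foxc1 was at 31.1 CPM in male and 29.3 CPM in female cells of this cluster, against medians of 1.18 and 0.836 CPM over all 19 clusters. The cluster held 22.0% and 22.6% of the mesenchyme UMIs of Foxc1. The Sall3 and Lbx2 cluster, at 7.0 and 5.7 CPM of Foxc1, held 22.9% and 29.2%. Foxc2 was at 11 and 29.3 CPM in the Tcf21 and Acta2 cluster, which held 17.2% and 29.0% of its UMIs. The next clusters, led by Nefm and Nefl and by Sall3 and Lbx2, had 7.38 and 2.74 CPM and 3.93 and 4.17 CPM. In male cells the Nefm and Nefl cluster held more Foxc2 UMIs, 33.3%. Both genes were low in most other clusters, and Foxc2 had no UMI in 7 male and 4 female clusters. The 8 endothelium markers summed to 10.4 and 12.3 CPM in the Tcf21 and Acta2 cluster, with 5 of the 8 at 0 in each library, against 5.72 to 17.5 CPM (male) and 5.44 to 16.9 CPM (female) in the other clusters. On chromosome 8, Foxf1, Foxc2 and the forkhead gene Foxl1 lie within a stretch in which Foxc2 is 28.0 kb from Foxf1 and 9.0 kb from Foxl1. Foxl1, a gene of gut mesenchyme, was at 98.3 and 94.1 CPM in the Tcf21 and Acta2 cluster and at 22.6 and 16.6 CPM in the next, led by Sall3 and Lbx2. Of the 9 genes described here, 6 had their highest mean level in this cluster (Foxc1, Foxc2, Foxd2, Foxf1, Foxp2 and Foxp4), against 14.3% of all genes tested. Because the 9 were chosen with earlier results of these data known, this is no test. With at most 5% mitochondrial UMIs the count was 2 of the 9.

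The D genes differed in where they were high. Foxd1 was at 63.6 CPM in male and 82.6 CPM in female cells of the Lmcd1 and Col8a1 cluster and at 70.6 and 74.5 CPM in the cycling cluster led by Sall3 and Lbx2, which overlap over the libraries. The Tac1 and Tfap2a cluster had 34.5 and 38.5 CPM and the Rprm and a cluster 33.8 and 28.2 CPM. Sall3 and Lbx2 are among the leading genes of both top clusters. In the Tcf21 and Acta2 cluster it was at 5.82 and 5.40 CPM. Foxd2 was highest in that cluster, at 82.2 and 103 CPM. The Nefm and Nefl cluster had 64.8 and 61.6 CPM of Foxd2, and the Vgll2 and Dlx2 cluster had 0.730 and 2.47 CPM. Most like Foxd1 over the clusters was Polr2c, an RNA polymerase subunit gene (r = 0.87 and 0.85).

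Foxp1 and Foxp2 were high in the same pair of domains and Foxp4 was more even. Foxp1 was at 353 CPM in male and 518 CPM in female cells of the cluster led by Vax2os and Tbx15. The Gatm and Sim1 cluster, of the same Sim1 and Tbx15 domain, had 232 and 380 CPM and the Tcf21 and Acta2 cluster 324 and 332 CPM. These are the domains in which Foxf1 was lowest and highest. Foxp2 was at 531 and 548 CPM in the Tcf21 and Acta2 cluster, at 150 and 190 CPM in the Vax2os and Tbx15 cluster and at 79.6 and 126 CPM in the Gatm and Sim1 cluster. The lowest Foxp2 level was 5.24 and 7.90 CPM in the Rprm and a cluster. Over the clusters Foxp1 and Foxp2 correlated at r = 0.83 in male and 0.82 in female cells, and Foxd1 and Foxp1 at -0.21 and -0.28. Foxp1 and Foxp2 share some stretches near their 3' ends, and the part of these in their correlation was not tested. Foxp4 was highest in the Tcf21 and Acta2 cluster (67.3 and 80.2 CPM) and the Sox9 and Sparcl1 cluster (71.8 and 64.6 CPM), which overlap over the libraries. The gene most like Foxp1, Gm20696, overlaps it on the same strand over 265238 bases of chromosome 6, and their reads may be split between them, so this likeness is uncertain. It was followed by the collagen gene Col4a5 (r = 0.90 and 0.93).

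**Figure D2:**
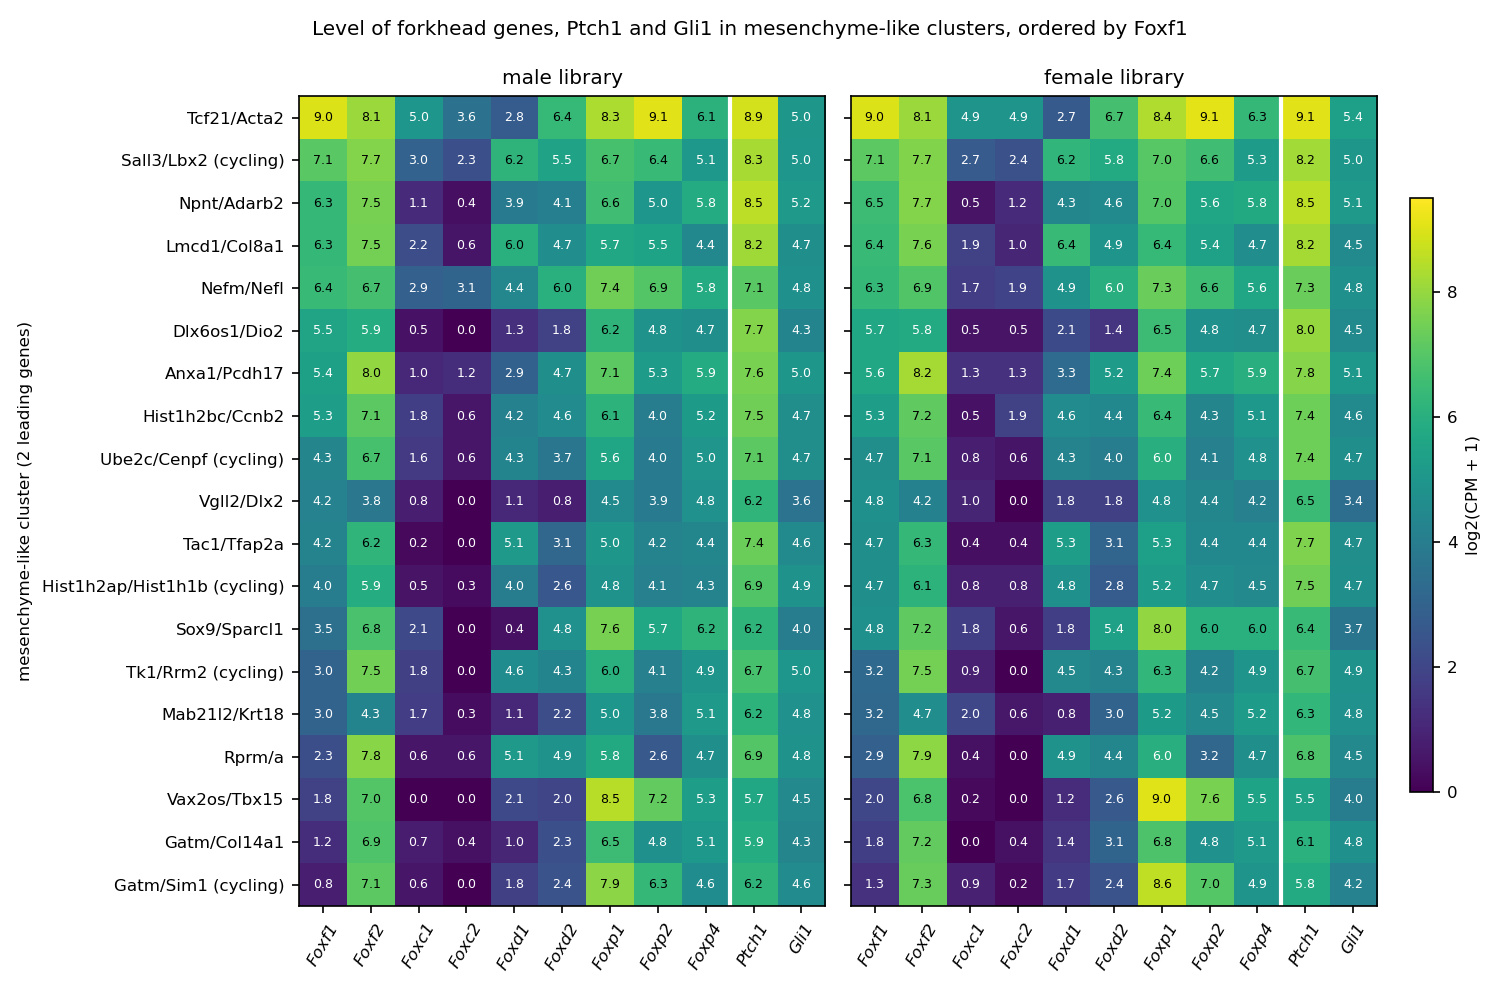
Level of the 9 forkhead genes, Ptch1 and Gli1 (columns) as log2(CPM + 1) in 19 mesenchyme-like clusters (rows, ordered by Foxf1), for the male library (left) and the female library (right), with the value in each cell. The top row, the Tcf21 and Acta2 cluster, is the highest for 6 of the 9 genes by the mean of the libraries, and Foxf2 stays near 7 in clusters at the bottom where Foxf1 is at 2 or less.

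Foxf1 followed Ptch1 over the mesenchyme clusters and Foxf2 did so less. Ptch1 was at 466 CPM in male and 544 CPM in female cells of the Tcf21 and Acta2 cluster, at 371 CPM in both libraries in the Npnt and Adarb2 cluster, and at 51.2 and 43.3 CPM in the Vax2os and Tbx15 cluster, its lowest. On the log2(CPM + 1) scale Foxf1 correlated with Ptch1 at r = 0.88 in male and 0.91 in female cells over 19 clusters. Of 13084 genes ranked by the mean of both r, Foxf1 was at rank 2, after the RNA-binding protein gene Rbm24. A correlation with Ptch1 of 0.7 or more in both libraries was reached by 0.290% of all genes tested and by Foxf1 alone of the 9. Without the Tcf21 and Acta2 cluster, r was 0.85 and 0.88. Foxf2 correlated with Ptch1 at r = 0.48 and 0.35 and was at rank 966. The mean of both r, 0.417, was 0.647 with a UMI limit of 5000 and 0.0916 with at most 5% mitochondrial UMIs, and for Foxf1 it was 0.877 at the 5% limit against 0.895.

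Gli1 shared its first 2 clusters with Ptch1, the Tcf21 and Acta2 cluster and the Npnt and Adarb2 cluster, by the mean of the libraries. Its level ran from 11.3 to 34.7 CPM over the male clusters and from 9.87 to 40.1 CPM over the female ones, with 1 CPM added a 2.89-fold and 3.78-fold range, against 8.94-fold and 12.3-fold for Ptch1. Foxf1 correlated with Gli1 at r = 0.36 in male and 0.44 in female cells, and Foxf2 at 0.62 and 0.48. With at most 5% mitochondrial UMIs Foxf1 and Gli1 were at r = -0.08 in male and 0.60 in female cells. Ptch1 and Gli1 themselves correlated at r = 0.58 and 0.64 (Spearman's rho 0.53 in both). An r of 0.7 or more with Gli1 in both libraries was reached by 0.0306% of all genes and by none of the 9. Of 13084 genes ranked by the mean of both r with Gli1, Foxf2 was at rank 136 and Foxf1 at rank 807. The cluster led by Mab21l2 and Krt18 had 26.7 and 27.3 CPM of Gli1 but 7.19 and 8.17 CPM of Foxf1 and 18.5 and 24.2 CPM of Foxf2.

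Of the 10 other receptors, antagonists and transducers on the Hedgehog lists, Hhip alone reached an r of 0.7 with Ptch1 in both libraries, as did 0.290% of all genes tested. Cdon alone was at -0.7 or below, for which no share over all genes was computed. The antagonist gene Hhip, also a target of the pathway, was at 83.5 and 70.2 CPM in the Tcf21 and Acta2 cluster and correlated with Ptch1 at r = 0.78 and 0.81. The co-receptor gene Cdon was at 5.18 and 6.17 CPM in that cluster and at 54.9 and 50.6 CPM in the Vax2os and Tbx15 cluster, and correlated with Ptch1 at -0.73 and -0.76. The ligand gene Shh was at 52.6 and 42.3 CPM in epithelium-like and at 0.206 and 0.146 CPM in mesenchyme-like cells. Among the other 8 genes Foxc2 was closest to Ptch1 by the mean of both r, at 0.543 and 0.695. Without the Tcf21 and Acta2 cluster Foxc2 was at 0.364 and 0.615. Foxc1 correlated with Ptch1 at r = 0.538 and 0.495, Foxd1 at 0.57 and 0.60, Foxd2 at 0.60 and 0.52, and Foxp1 at 0.05 and -0.09. Foxd1 reached 0.67 and 0.74 without the Tcf21 and Acta2 cluster, in which it is low and Ptch1 is highest.

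**Figure D3:**
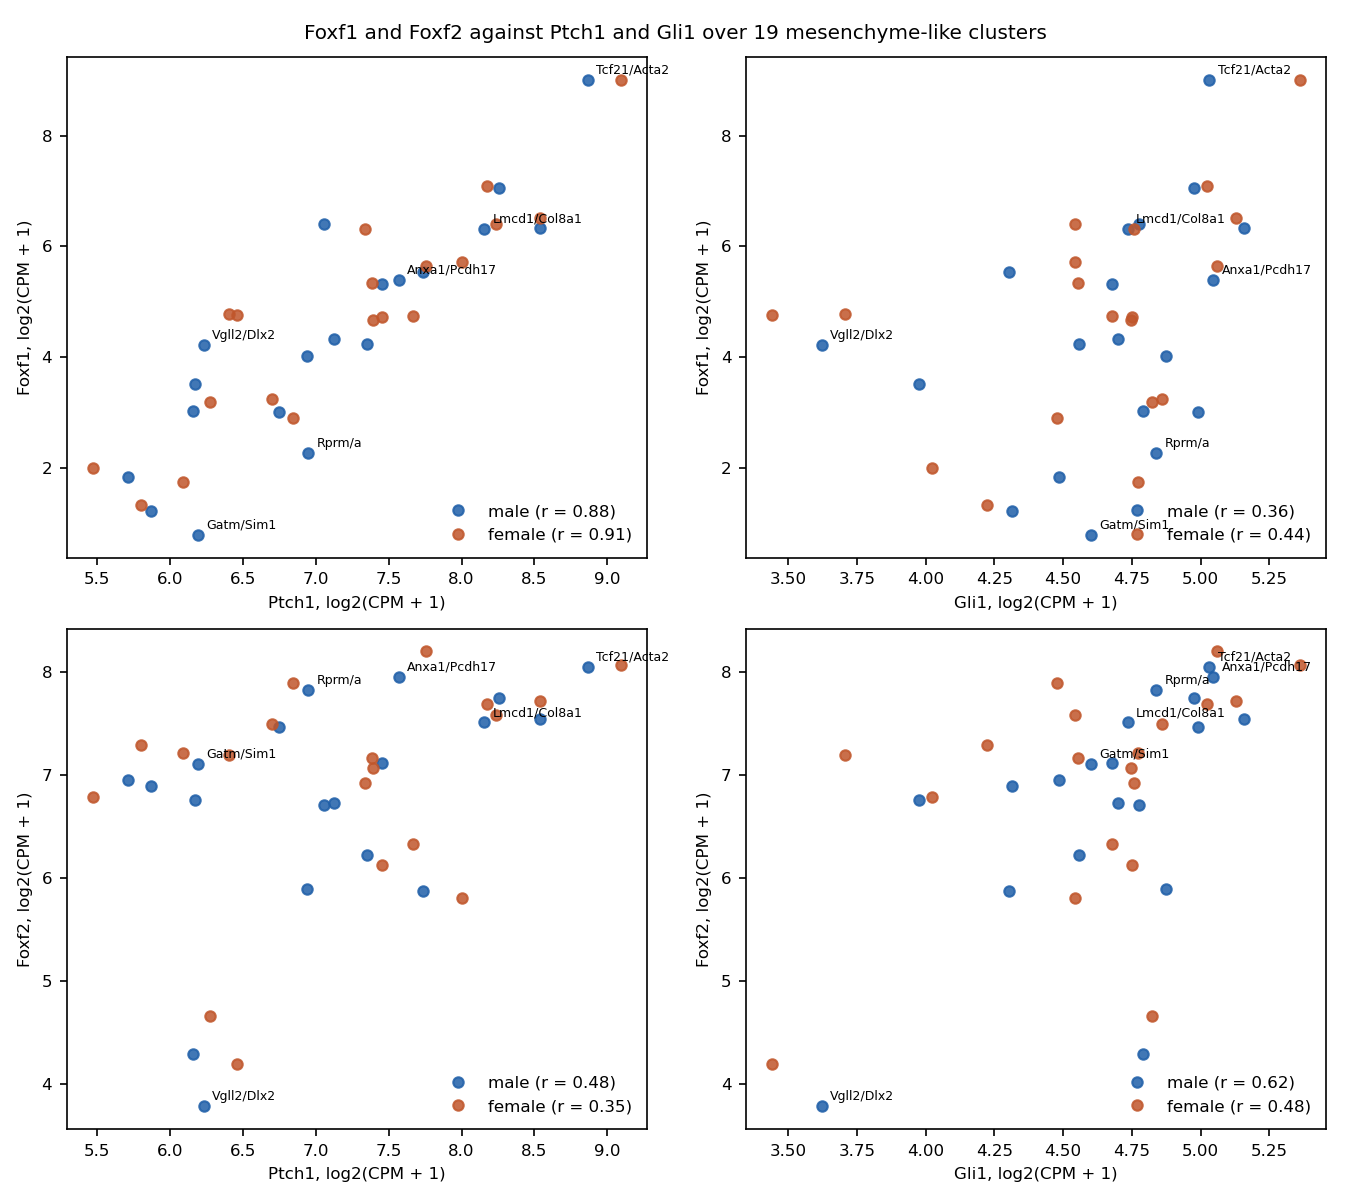
Foxf1 (top) and Foxf2 (bottom) against Ptch1 (left) and Gli1 (right), all as log2(CPM + 1), with a point for each of the 19 mesenchyme-like clusters in the male library (blue) and the female library (orange) and 6 clusters named beside the male point. Foxf1 and Ptch1 lie along a line (r = 0.88 in male and 0.91 in female cells), and for Foxf2 the Vgll2 and Dlx2 cluster lies lowest.

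Joint detection in single cells was compared next. After each cell was thinned to 2000 UMIs, Foxf1 had a UMI in 15.3% (14.1 to 16.5) of 3550 male cells with a Ptch1 UMI and in 5.40% (4.98 to 5.84) of 10634 male cells without one. In female cells the shares were 17.5% (16.4 to 18.7) of 4099 and 5.71% (5.29 to 6.15) of 11283, with exact Clopper-Pearson intervals. Unthinned, they were 23.9% and 7.89% in male and 26.1% and 8.09% in female cells. For Foxf2 the thinned shares were 27.6% and 19.5% in male and 29.4% and 21.6% in female cells, and unthinned 51.0% and 33.3%, and 54.1% and 38.0%. For Foxp1 they were 16.1% and 15.6% in male and 18.9% and 20.4% in female cells when thinned. In cells with and without a Gli1 UMI, thinned shares of Foxf1 were 10.65% and 7.73% (male) and 13.42% and 8.63% (female). Those of Foxf2 were 24.03% and 21.41% (male) and 26.58% and 23.54% (female). Over all mesenchyme-like cells, at medians of 4808 and 4829 UMIs, Foxf1 had a UMI in 15.3% of male and 16.8% of female cells unthinned, against 0.704% and 1.14% of epithelium-like cells at 7516 and 6434 UMIs and 9.60% and 12.7% of erythroid-like cells at 7908 and 8407 UMIs. Thinned shares of Foxf1 were 8.13% and 8.44% in mesenchyme-like, 0 in epithelium-like (exact upper bounds of 2.56% and 4.11%), and 2.40% and 2.82% in erythroid-like cells. Thinned shares of Foxf2 were 21.7% and 24.0% in mesenchyme-like, 1.41% and 2.27% in epithelium-like, and 8% and 9.86% in erythroid-like cells.

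Cells with a UMI of both genes of a pair were then counted against the number that the shares of each gene within each cluster would give, so that differences between clusters do not enter. Foxf1 and Ptch1 were found together in 543 male cells, 1.31 times that number (1.2 to 1.42), and in 719 female cells, 1.36 times (1.27 to 1.47). Foxf1 with Foxp2 gave 1.25 and 1.33, Foxd2 with Foxf1 1.44 and 1.30, and Foxp1 with Foxp2 1.21 and 1.23, with intervals above 1 in both libraries. For Foxp1 with Foxp2, the part of the stretches they share near their 3' ends was not tested. Foxf1 with Foxf2 gave 1.12 (1.00 to 1.24) and 1.14 (1.03 to 1.25). Foxd1 with Foxp1 or Foxp2 lay below 1: Foxd1 with Foxp1 gave 0.68 (0.49 to 0.92) in male and 0.71 (0.55 to 0.91) in female cells, and Foxd1 with Foxp2 0.60 and 0.66. Other pairs with Foxd1 lay on both sides of 1. Foxd1 with Foxp4 gave 0.86 (0.55 to 1.29) in male and 0.77 (0.50 to 1.13) in female cells. Foxd1 with Foxd2 gave 0.94 (0.60 to 1.40) and 0.855 (0.56 to 1.25), so that the intervals of both pairs contain 1. Foxd1 with Ptch1 gave 1.32 (1.14 to 1.52) and 1.22 (1.06 to 1.39), and Foxd1 with Foxf2 1.23 (1.04 to 1.44) and 1.14 (0.97 to 1.32). The ratios were not computed for pairs of other genes, so that no background can be set beside them. Foxc1 and Foxc2 shared only 2 male and 3 female cells, too few to place.

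**Figure D4:**
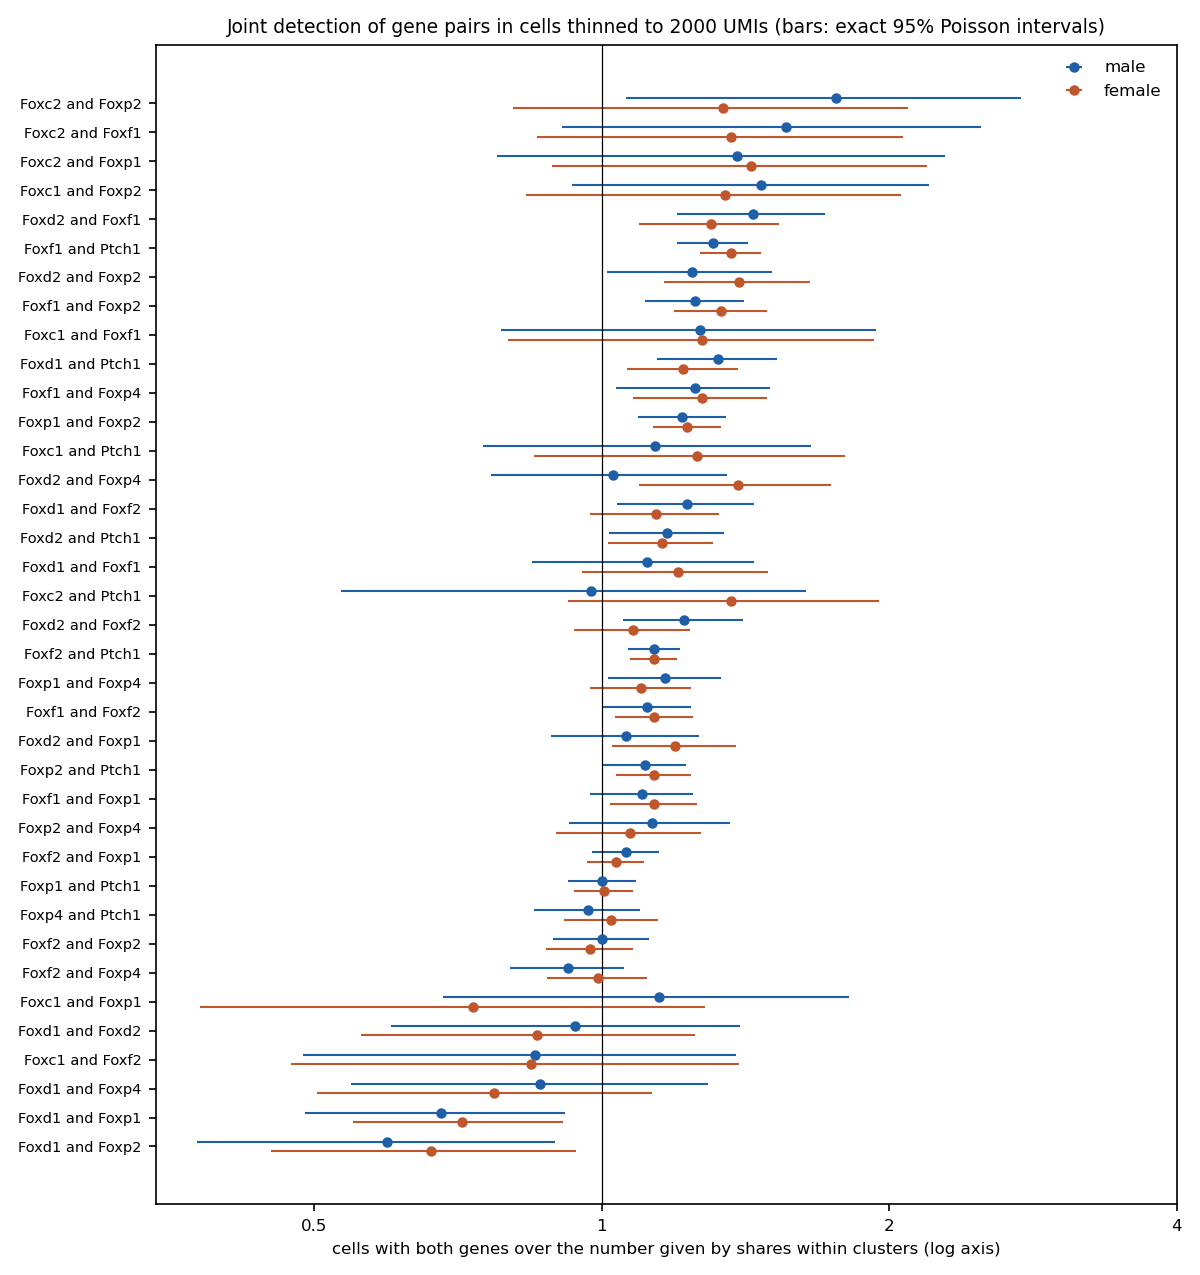
Cells with both genes of a pair over the number given by the shares within clusters (x axis, log scale), for the 37 pairs of forkhead genes, or of one with Ptch1, that had 10 or more such cells in each library (rows, ordered by the mean of the libraries), with the male library in blue above the female library in orange and exact 95% Poisson intervals. Foxf1 with Ptch1, Foxp2 or Foxd2 lies to the right of 1 in both libraries, and Foxd1 with Foxp1 or Foxp2 to the left.

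Between the sexes, Foxp1 was lower in male than in female mesenchyme. It was at 100.8 CPM in male and 141.8 CPM in female mesenchyme-like cells, a log2 ratio of male over female of -0.49 (-0.53 to -0.45). It was the only member of the 9 that was lower by 1.2-fold or more in male cells, as were 5.15% of all genes tested. Over all genes the ratio had a median of -0.02 and 5th and 95th percentiles of -0.27 and 0.33. Foxp1 was lower in male cells in 18 of 19 clusters, with the interval below 0 in 13, against 4.14% of genes that were lower in male cells in 18 or more. The exception was the Nefm and Nefl cluster, with 173 and 160 CPM. The Vax2os and Tbx15 cluster, highest in Foxp1, held 3.47% of male and 5.96% of female mesenchyme-like cells. With each cluster given the same share in both libraries the ratio was -0.36, and with at most 5% mitochondrial UMIs per cell it was -0.22, short of 1.2-fold. With 3 embryos pooled per sex, the spread between embryos is not known.

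Foxf1 was even over the whole class, at 47.5 CPM in male and 48.2 CPM in female cells (-0.02, interval -0.09 to 0.04). It was lower in male cells in 18 of all 19 clusters and in 16 of the 17 with 20 or more UMIs. Of all genes tested, 4.14% were lower in male cells in 18 or more clusters, and no share was computed for 16 of 17. With each cluster at the same share in both libraries the ratio of Foxf1 was -0.14. The Tcf21 and Acta2 cluster, which has the most Foxf1, made up 2.59% of male and 2.07% of female cells. Foxf2 was at -0.18 (-0.22 to -0.14), Foxp2 at -0.23 (-0.29 to -0.17), Foxd2 at -0.19 and Foxd1 at -0.19, all short of 1.2-fold. With at most 5% mitochondrial UMIs Foxp2 turned to 0.05, and Foxd1 (-0.32) and Foxd2 (-0.28) passed 1.2-fold. Foxp4 was at -0.01 (-0.09 to 0.06), and at 0.25 under that limit. Foxc2, from 99 male and 131 female UMIs, was at -0.20 with an interval of -0.60 to 0.18 that contains 0. It was higher in male cells of the Nefm and Nefl cluster, at 1.43 (0.44 to 2.52), and lower in male cells of the Tcf21 and Acta2 cluster, at -1.41 (-2.33 to -0.55).

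Foxc1 was the only member higher by 1.2-fold or more in male cells, as were 7.39% of all genes tested. It was at 2.80 CPM (218 UMIs) in male and 1.88 CPM (168 UMIs) in female mesenchyme-like cells, a log2 ratio of 0.58 (0.28 to 0.87). The limit of 5% mitochondrial UMIs, which kept 1213 male and 1101 female cells, gave 2.43. That ratio rests on 2.47 and 0.46 CPM, and no interval was computed for it. Without that limit, Foxc1 was at 31.1 and 29.3 CPM in the Tcf21 and Acta2 cluster and at 6.48 and 2.28 CPM in the Nefm and Nefl cluster. The 6 smooth muscle markers summed to 60.5 CPM in male and 40.6 CPM in female mesenchyme-like cells, with none at 0, and their part in the Foxc1 ratio was not tested.

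**Figure D5:**
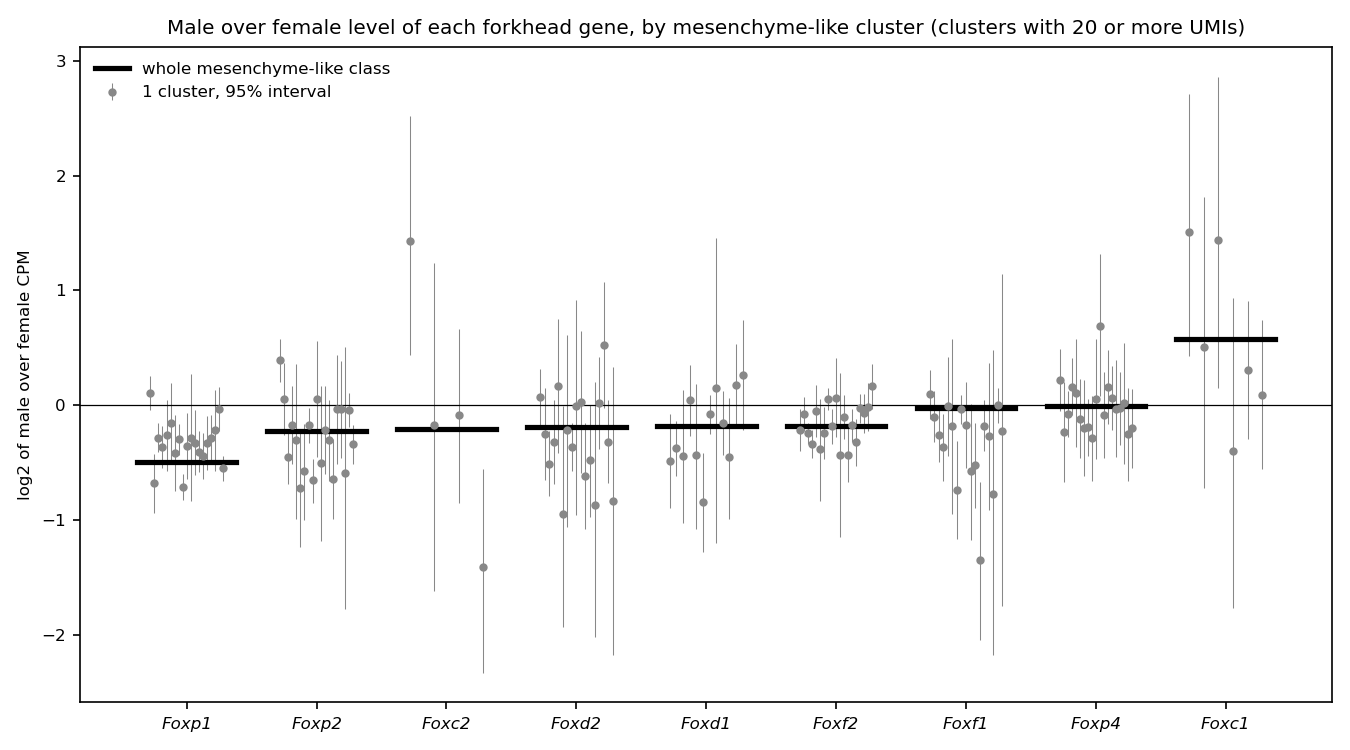
Log2 of male over female CPM (y axis) for the 9 forkhead genes (x axis), with a grey point and exact 95% interval for each mesenchyme-like cluster with 20 or more UMIs of the gene and a black line for the whole mesenchyme-like class. Foxp1 lies at -0.49 with 18 of its 19 clusters below 0, Foxf1 at -0.02 with 16 of 17 clusters below 0, and Foxc1 at 0.58 with few clusters and wide intervals.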

How the data were processed

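Raw UMI counts were deposited by the authors for each gene and barcode, from Cell Ranger 3.1 and the mm10 build per the submitters' processing notes. All 6794880 barcodes were listed, so cells had not been called. The annotation version is not given in the sources used here. Of the gene IDs, 99.9% matched GENCODE M21, which gave coordinates.

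Barcodes passed at 2000 UMIs, 500 genes and 10% mitochondrial UMIs. Scrublet, in scanpy 1.11.5, marked 0.01% of male and 0% of female barcodes at its own threshold and so had not worked. The highest scores were removed at 0.8% per 1000 barcodes (13.81% and 14.97%). Doublets of similar cells stay in.

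Levels are CPM, UMIs per 1000000 UMIs. Each cell was scaled to 10000 UMIs and put on a log scale. Clusters came from 2000 variable genes less forkhead, Hedgehog, mitochondrial, haemoglobin, Y-linked and X inactivation genes, with 30 components, 15 neighbours and Leiden resolution 1 (python-igraph 0.11.9, seed 0). Classes were named where a marker list averaged a log2 fold of 2 or more, with at least 3 markers detected. Mesenchyme-like cells were clustered again. Clusters were called cycling where Mki67, Top2a or Rrm2 was at 2 times the class level or more.

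Ratios have exact conditional intervals for 2 Poisson counts, and shares exact Clopper-Pearson intervals. Intervals cover counting error only. Scripts were tested on simulated data. The genes named are the 9 members, the Hedgehog genes and chromosomal neighbours listed by name, other forkhead genes at 20 CPM or more in a class of both libraries, and the 3 genes most like each member among those with 500 or more UMIs. Some of these genes and some sequences are not reported here. Members, gene lists and cluster domains were chosen with earlier results of these data known.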

Additional observations from a re-analysis of the deposited data

How the results depend on the processing

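The libraries set the limits: each sex is 1 pool, so differences between embryos and between sexes cannot be told apart, and free RNA is present in all barcodes. No paired analysis was possible because the labels give each sex 1 library. Of 95 alternative values for the main results, 75 stayed within their limits and 20 moved. For a count the limit was a fixed fold of the main count. For an r it was the standard deviation of the male and female r, so it was wider where the libraries differed more. Among the levels and male over female ratios of single members, 109 alternatives stayed within the counting interval and 62 moved. The count of genes 1.2-fold lower in male than in female mesenchyme was 1 and became 3 with a UMI limit of 5000 or with at most 5% mitochondrial UMIs, and 2 with the mean of per-cell CPM or with each cluster at the same share in both libraries. The limit of 5% left 1213 male and 1101 female cells and 10 clusters. Under it the genes highest in the Tcf21 cluster were 2 against 6. Of the 36 pairs of the 9 genes, those found together at 1.2 times or more in both libraries were 4 against 11. Foxc1 with Foxc2, in 2 and 3 cells, was among the 11. The mean r over both libraries was 0.258 for Foxf1 with Gli1 (0.399 otherwise), from -0.0836 in male cells, where the sign turned, and 0.599 in female cells. The mean r was 0.0916 for Foxf2 with Ptch1 (0.417) and 0.444 for Foxf2 with Gli1 (0.552). With 5000 UMIs these 3 were 0.455, 0.647 and 0.691. Foxf1 with Ptch1, at a mean of 0.895, was 0.844 with doublets kept, 0.918 at a resolution of 0.5 and 0.864 without the Tcf21 cluster. That last setting was added once the data had been seen. Foxf1 with Gli1 was 0.336 in thinned cells and 0.294 without the Tcf21 cluster. Foxf2 with Ptch1 was 0.514 with doublets kept, and Foxf2 with Gli1 0.427 at 1000 UMIs and 0.385 with forkhead and Hedgehog genes kept in the clustering. The cause of these moves was not tested. Foxp1 ranged from -0.533 to -0.218, Foxp2 from -0.336 to 0.0485, Foxp4 from -0.103 to 0.253 and Foxc1 from 0.417 to 2.43 over 7 alternatives of the male over female ratio. The 2.43 of Foxc1 came at the limit of 5%, from 2.47 CPM in male and 0.46 CPM in female mesenchyme-like cells, and has no interval.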

Other observations

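Of the 36 other forkhead symbols, 14 had 100 or more UMIs in mesenchyme-like cells and 7 had none. Foxn3, a checkpoint-related repressor gene, was at 167 CPM in male and 182 CPM in female mesenchyme-like cells. Foxm1, which drives genes of mitosis, was highest in the cycling cluster led by Ube2c and Cenpf, at 38.4 and 37.4 CPM, against 14.9 and 16.1 CPM over the whole class. Foxd3, a neural crest gene, was at 504 and 646 CPM in the glia and neural crest-like class, whose markers include it. Foxj3, Foxk2, Foxo1 and Foxq1 also passed 20 CPM in a class of both libraries.

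Genes most like each member over the clusters included the RNA-binding protein gene Rbpms for Foxc1 (r = 0.89 in male and 0.90 in female cells), Tcf21 for Foxc2 (0.90 and 0.92), the sialyltransferase gene St3gal6 for Foxf1 (0.94 in both), Phlda1 for Foxp2 (0.87 and 0.85) and the transcription factor gene Ebf3 for Foxp4 (0.89 and 0.91). Each is the most like of the genes searched.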
